A study of Homo sapiens with 30 samples.

Results

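The 10 genes described here encode the glucose transporter GLUT1 (SLC2A1) and enzymes of glycolysis: the hexokinases HK1 and HK2, the platelet type phosphofructokinase PFKP, the aldolase ALDOA, GAPDH, the phosphoglycerate kinase PGK1, the enolase ENO1, the pyruvate kinase PKM and the lactate dehydrogenase subunit LDHA. They were taken by name from a table of 57992 genes measured by RNA-seq, and all 10 passed the filter on low values in every comparison. The study treated 2 human tumour lines with Omomyc, a miniprotein derived from the dimerization and DNA-binding domain of MYC that dimerizes and binds E boxes in its place. HCT116 is a colon carcinoma line that the labels describe as having stabilized MYC, and it was left untreated or given 2 μM or 10 μM Omomyc for 6 h or 24 h. Ramos is a Burkitt lymphoma line with a MYC translocation, and it was left untreated or given 0.5 μM or 2.5 μM for 6 h or 24 h. Each of the 10 groups has 3 libraries of ribosome-depleted total RNA, and each line has a single untreated group with no time of its own, which all treated groups of that line share. Omomyc was added to HCT116 cells together with a protein transfection reagent, and whether the untreated cells received that reagent is not given in the sources used here. Nothing in the labels says that replicates were separate cultures, so the tests measure the spread between libraries, which may be technical.

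Glycolysis splits glucose into pyruvate and yields ATP without oxygen. SLC2A1 carries glucose into the cell, and hexokinase traps it as glucose 6-phosphate, with HK1 as the form present in most tissues and HK2 as the form that is induced in muscle and many tumours. Phosphofructokinase and aldolase commit and cleave the sugar, GAPDH and PGK1 carry out the first oxidation and the first ATP-yielding step, ENO1 and PKM form pyruvate, and LDHA reduces pyruvate to lactate while it regenerates NAD+. MYC and its partner MAX bind the E box, whose canonical form is CACGTG, and LDHA, HK2, ENO1 and other genes of this pathway are long known as MYC targets. HIF-1, the oxygen-sensing factor, activates many of the same genes.

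The CACGTG letters were searched in the listed promoter windows of RefSeq (GRCh38.p14), which run from 250 bases before to 50 bases after each annotated start. The motif reads the same on both strands. It was found in 4 of the 10 genes and in 4 of their 23 windows (17.4%), against 2548 of all 35116 windows (7.26%) and 2396 of all 27305 genes (8.77%). The 6 matches are shown with 12 flanking bases on each side and the motif in capitals, since this is the sequence that Omomyc and MYC are known to share.
HK2, chr2:74834964-74834993, plus strand: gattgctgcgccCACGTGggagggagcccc
HK2, chr2:74835009-74835038, plus strand: ttccggcgagagCACGTGgagagaatcgtg
ALDOA, chr16:30064373-30064402, plus strand: tggcagggaggcCACGTGatccgagtcccc
GAPDH, chr12:6535171-6535200, plus strand: gctctgcggggtCACGTGtcgcagaggagc
LDHA, chr11:18394366-18394395, plus strand: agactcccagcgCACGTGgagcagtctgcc
LDHA, chr11:18394464-18394493, plus strand: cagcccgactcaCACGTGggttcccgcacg
In the GENCODE 29 annotation, both HK2 motifs lay in an intron of 1 of 3 transcripts, and the ALDOA motif lay in an exon of 1 and an intron of 3 of 21 transcripts. The GAPDH motif lay in an intron of 8 of 11 transcripts. The first LDHA motif lay outside all 25 annotated transcripts and the second in an exon of 1 of them. The windows of SLC2A1, HK1, PFKP, PGK1, ENO1 and PKM did not hold these letters, which says nothing about binding outside the windows or to other forms of the motif.

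The deposited unit is RPKM, a read number divided by gene length and by library size, and its values are fractional, so the depth of a library is unknown and no counting interval can be given. RPKM summed to between 593633 and 1051041 per library, while the protein-coding genes alone summed to between 419592 and 485946, and misc_RNA genes (66026 to 401063) took between 38.4% and 66.4% of the difference. The third replicate of HCT116 at 10 μM for 6 h stood apart, with the highest total (1051041) and misc_RNA (401063) sums, and its 10 genes took 0.888% of the protein-coding RPKM against 1.40% and 1.38% in the other replicates. For its group, the calls among the 10 genes and the list counts against untreated cells, on the values as deposited, are given with and without it. Changes of named list genes, rescaled counts, means of ratios and of the share, and correlations include it. The B cell markers MS4A1, CD79A, CD79B and PAX5 were at 38.6 RPKM or more in every Ramos library and at most 0.414 in HCT116. The epithelial markers EPCAM, KRT8, KRT18 and CDH1 were at 11.4 RPKM or more in every HCT116 library and at most 0.669 in Ramos, and the intestinal factor CDX1 was listed at 0 in both lines.

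In untreated cells the 10 genes ran from 7.25 to 3216 RPKM, a scale per gene length that allows levels to be compared between genes. In HCT116 the order of the means was GAPDH at 3216 ± 24.1 RPKM, ENO1 at 1529.9 ± 3.99, PKM at 750.1 ± 13.2, ALDOA at 528 ± 4.71, LDHA at 448 ± 15.4, PGK1 at 246 ± 6.50, PFKP at 104 ± 1.60, SLC2A1 at 97.3 ± 10.3, HK1 at 32.0 ± 1.02 and HK2 at 9.39 ± 0.885 (SD, n = 3). Only PFKP and SLC2A1 overlapped between their libraries among neighbours in this order. In Ramos the order was GAPDH at 2924 ± 146 RPKM, ENO1 at 1011 ± 61.3, ALDOA at 721 ± 50.6, LDHA at 545 ± 6.84, PKM at 495 ± 8.49, PGK1 at 309.9 ± 12.5, PFKP at 70.8 ± 5.90, SLC2A1 at 47.9 ± 7.67, HK1 at 27.3 ± 0.665 and HK2 at 7.25 ± 0.436 (SD, n = 3), and no neighbours overlapped. Both lines thus shared the top and the bottom of the order, with GAPDH and ENO1 first and the hexokinases last.

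The comparison of the untreated lines asks how the pathway differed before Omomyc. All 10 genes differed by limma and none overlapped between the lines, where 84.6% of 15647 genes tested were called (45.7% higher, 39.0% lower) and 85.6% did not overlap. The call of GAPDH was lost in 5 of 6 fits that left out 1 library, all but the one without replicate 3 of untreated Ramos. The transporter gene differed most among the 10. SLC2A1 was at 95.4, 108 and 88.1 RPKM in HCT116 and at 43.6, 56.8 and 43.4 RPKM in Ramos, a log2 difference of 1.02 ± 0.12 (SE, limma adjusted p = 0.000155). ENO1 and PKM were 51.5% and 51.4% higher in HCT116, PFKP 47.1% higher, HK2 27.4%, HK1 16.9% and GAPDH 10.1%. ALDOA, PGK1 and LDHA were lower in HCT116, by log2 differences of -0.45, -0.33 and -0.28, but after rescaling every library to the same total RPKM (equal sums) their differences turned to 0.13, 0.25 and 0.29. With equal sums PGK1 and LDHA passed the threshold in this opposite direction (limma adjusted p = 0.0151 and 0.00565). Of the 10 genes 9 were then called higher in HCT116 and none lower, where 62.0% of all genes were called higher and 22.3% lower.

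**Figure D1:**
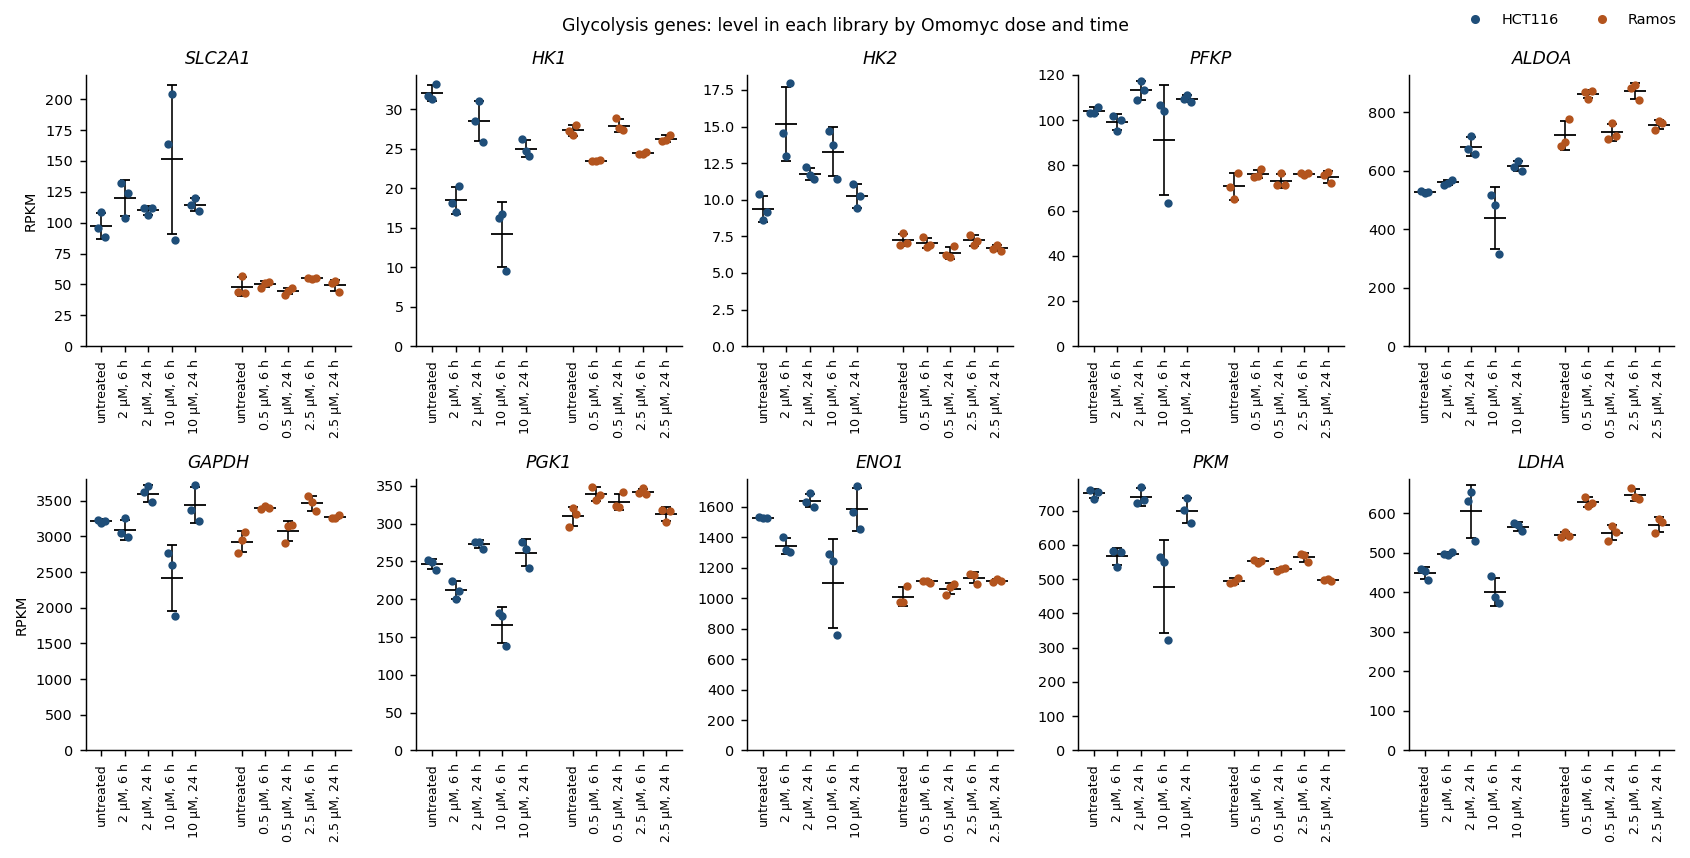
RPKM of the 10 glycolysis genes (1 panel each, axis from 0) in each library, by line, Omomyc dose and time; points are libraries, the long bar is the mean and the whiskers are 1 SD (n = 3). HK1 in HCT116 lay between 16.98 and 20.3 RPKM after 6 h at 2 μM, below the 31.3 to 33.2 RPKM of untreated cells, while in Ramos no gene moved by more than 21.3% at 6 h.

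The first treated comparison in HCT116, 2 μM for 6 h against untreated cells, separated the 2 hexokinases. HK1 fell by 0.78 on the log2 scale while HK2 rose by 0.66. PKM and PGK1 fell as well, and SLC2A1 rose. Of the 10 genes, 2 rose and 3 fell, which is 5 of 10 where 47.3% of 14550 genes tested were called (15.5% higher, 31.8% lower), so the share called was near that of all genes. The libraries did not overlap for 8 of the 10, against 57.8% of all genes. The median of the 10 log2 differences was -0.06, against -0.12 over all genes tested.

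HK1 was at 31.7, 31.3 and 33.2 RPKM in the untreated HCT116 libraries and at 18.1, 16.98 and 20.3 RPKM after 6 h at 2 μM, and no treated library reached an untreated one. Its log2 difference was -0.78 ± 0.08 (SE, limma adjusted p = 0.000105), a fall of 41.9%. HK2 was at 10.4, 8.65 and 9.14 RPKM in untreated cells and at 14.6, 12.98 and 17.96 RPKM in treated cells. All treated libraries were above all untreated ones, and the log2 difference was 0.66 ± 0.12 (SE, limma adjusted p = 0.00197), a rise of 57.6%.

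At the pyruvate end of the pathway, PKM was at 761, 735 and 754 RPKM in untreated and at 582, 536 and 579.9 RPKM in treated cells, a fall of 24.6% (log2 difference -0.41 ± 0.07 SE, limma adjusted p = 0.00150). LDHA, the enzyme after it, was at 459, 454 and 430.3 RPKM in untreated and at 496, 493 and 502 RPKM in treated cells, and although its libraries did not overlap, its log2 difference of 0.15 ± 0.06 was not past the threshold (limma adjusted p = 0.0811). PGK1 fell by 0.22 on the log2 scale (SE 0.07, limma adjusted p = 0.0222), from 246 ± 6.50 to 212 ± 11.8 RPKM (SD, n = 3). SLC2A1 rose by 0.30 (SE 0.10, limma adjusted p = 0.0388), from 97.3 ± 10.3 to 120.1 ± 14.9 RPKM, with libraries that overlapped. PFKP, ALDOA, GAPDH and ENO1 had log2 differences of -0.07, 0.09, -0.06 and -0.19, none past the threshold. HK1, HK2 and PKM were called in 6 of 6 fits that left out 1 library, while PGK1 lost its call without any of the untreated libraries and SLC2A1 without replicate 1 or 3 of either group.

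Direction in this comparison depended in part on the scaling of the libraries. Rescaling to an equal sum of RPKM moved the median of all genes from -0.12 to -0.42 and turned SLC2A1 to -0.04, while HK2 stayed positive without passing the threshold. HK1 and PKM fell past the threshold under all 4 scalings tried. Relative to the median of all genes HK1 was at -0.67, PKM at -0.29, PGK1 at -0.10, SLC2A1 at 0.42 and HK2 at 0.77. By count, 4 genes rose and 2 fell under median-ratio scaling, where 24.3% of all genes were called higher and 20.9% lower. With equal protein-coding sums 1 rose and 4 fell (12.3% and 36.8% of all genes), and with equal total sums none rose and 7 fell (4.27% and 58.9%). PGK1 lost its call under median-ratio scaling, and SLC2A1, PGK1 and PKM lost theirs when all 5 HCT116 groups shared 1 fit. SLC2A1 also lost its call without the filter, with equal protein-coding sums and with the replicate number as a block, and kept it in 3 of 8 other settings.

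**Figure D2:**
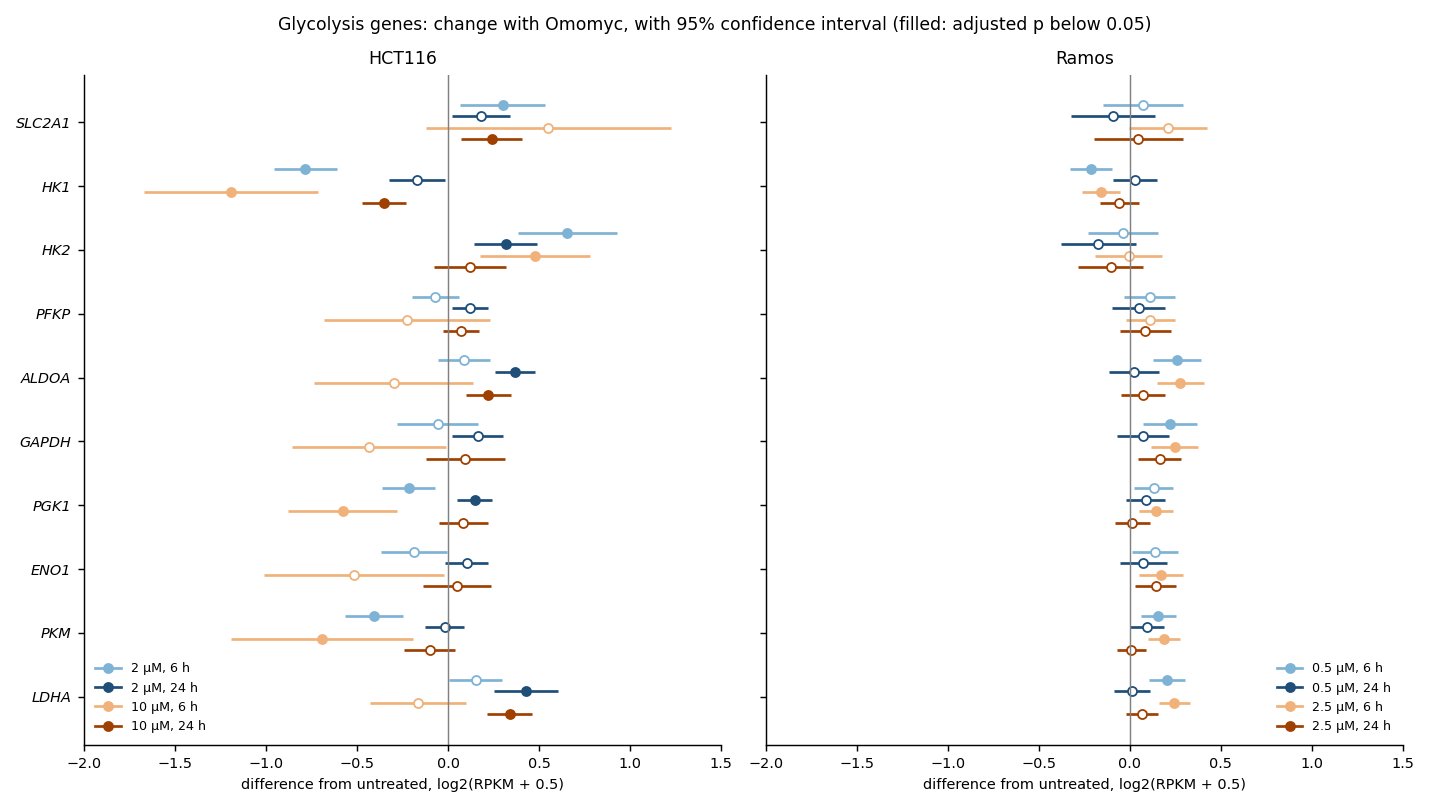
Log2 difference from untreated cells of each of the 10 genes in HCT116 (left) and Ramos (right), on the log2(RPKM + 0.5) scale, with the 95% confidence interval of the limma fit; colours are doses and times, and filled points passed an adjusted p of 0.05. The widest spread was in HCT116 at 6 h, from -1.19 for HK1 to 0.66 for HK2, and in Ramos all values lay between -0.21 and 0.28.

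At 10 μM for 6 h HK1 again fell and HK2 again rose in HCT116. Of the 10 genes 1 rose and 3 fell, where 30.0% of 14785 genes tested were called (8.84% higher, 21.2% lower). Their median log2 difference was -0.37, against -0.11 over all genes, and 7 of the 10 did not overlap the untreated libraries, against 50.2% of all genes. HK1 was at 16.2, 16.8 and 9.45 RPKM, all below the untreated libraries, with a log2 difference of -1.19 ± 0.21 (SE, limma adjusted p = 0.00595). HK2 was at 14.7, 13.7 and 11.4 RPKM, all above them, with 0.48 ± 0.13 (SE, limma adjusted p = 0.0292). PGK1 fell by 0.58 (SE 0.13, limma adjusted p = 0.0148) and PKM by 0.69 (SE 0.22, limma adjusted p = 0.0456). SLC2A1 had a higher difference than HK2, 0.55, but did not pass the threshold. With equal sums of RPKM 7 of the 10 genes fell, where 46.5% of all genes were called lower, and HK2 was not called. PKM lost its call without the filter, under median-ratio scaling and with equal protein-coding sums (PGK1 kept its call in these fits), while HK1 kept its call under every other setting tried.

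The third replicate of this group widened the spread for most of the 10 genes. PKM was at 564, 549 and 322 RPKM, ENO1 at 1288, 1246 and 758 RPKM, and SLC2A1 at 164, 204 and 86.0 RPKM, the last value below the untreated mean. Without that library 51.2% of all genes were called, and of the 10 genes 2 rose and 5 fell. SLC2A1 then rose by 0.91 (SE 0.11, limma adjusted p = 0.000404), HK2 rose by 0.58 and HK1 fell by 0.93, while PKM, PGK1, ENO1 and GAPDH fell by 0.43, 0.45, 0.27 and 0.26. With any single untreated library left out instead, only HK1 of the 10 was called, and HK2 also lost its call without the first or second treated replicate.

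By 24 h the HCT116 pattern had changed, and the genes that rose at both doses were ALDOA and LDHA. At 2 μM, 4 of the 10 genes rose and none fell, where 27.3% of 14886 genes tested were called (16.6% higher, 10.8% lower), and the median of the 10 was 0.15 against 0.04 over all genes. At 10 μM, 3 rose and 1 fell, where 35.2% of 14827 genes were called (19.5% higher, 15.7% lower), and the median was 0.09 against 0.02. The libraries did not overlap for 8 of the 10 genes at 2 μM and 5 at 10 μM, against 44.9% and 49.3% of all genes.

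LDHA was at 632, 654 and 529 RPKM after 24 h at 2 μM and at 575, 569.8 and 554 RPKM at 10 μM, with every treated library above the untreated 430.3 to 459 RPKM. Its log2 differences were 0.43 ± 0.08 (SE, limma adjusted p = 0.00502) and 0.34 ± 0.06 (SE, limma adjusted p = 0.00152). ALDOA was at 674, 717 and 657 RPKM at 2 μM and at 613, 634 and 599.6 RPKM at 10 μM, against 532, 523 and 528 RPKM in untreated cells. It did not overlap the untreated group at either dose, and its log2 differences were 0.37 ± 0.05 and 0.22 ± 0.05 (SE, limma adjusted p = 0.00138 and 0.0115). With equal sums of RPKM none of the 10 rose at either dose, and 1 of the 10 fell at each, where 20.0% and 26.3% of all genes were called lower at 2 μM and 10 μM. ALDOA also lost its call at both doses when all 5 HCT116 groups shared 1 fit, and at 10 μM under median-ratio scaling.

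The hexokinases had moved back toward the untreated level by 24 h without reaching it at both doses. HK1 was at 28.6, 31.0 and 25.9 RPKM at 2 μM, a log2 difference of -0.17 that did not pass the threshold (limma adjusted p = 0.0903), and at 26.2, 24.7 and 24.1 RPKM at 10 μM, where it fell by 0.35 (SE 0.05, limma adjusted p = 0.00119). HK2 rose by 0.32 at 2 μM (SE 0.08, limma adjusted p = 0.0169) and was 0.12 above untreated cells at 10 μM (limma adjusted p = 0.308). SLC2A1 rose by 0.24 at 10 μM (limma adjusted p = 0.0315), and PGK1 rose by 0.15 at 2 μM (limma adjusted p = 0.0317), a rise that turned to -0.01 with equal sums of RPKM. HK2 at 2 μM was called in 3 of 6 fits that left out 1 library, losing its call without treated replicate 1 or untreated replicate 2 or 3. SLC2A1 at 10 μM was called in 2 of 6, losing its call without treated replicate 1 or 2 or untreated replicate 1 or 3, and PGK1 at 2 μM in 1 of 6, the fit without treated replicate 3. ALDOA at 10 μM lost its call without untreated replicate 3, while LDHA at both doses, ALDOA at 2 μM and HK1 at 10 μM lost none. SLC2A1 at 10 μM also lost its call without the filter, under the 3 other scalings and when all 5 HCT116 groups shared 1 fit. HK2 at 2 μM lost it without the filter, with equal sums and in that fit, and HK1 at 10 μM in that fit. PGK1 at 2 μM lost it without the filter, under median-ratio scaling, with equal sums, with the replicate number as a block and in that fit. PKM, which had fallen at 6 h, was at 740.4 ± 26.2 and 700.2 ± 36.8 RPKM at the 2 doses (SD, n = 3), and its differences from the untreated 750.1 RPKM did not pass the threshold.

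The 2 time points were compared within each dose. At 2 μM, a comparison added after the values were seen, 7 of the 10 genes were higher at 24 h than at 6 h and 1 was lower, where 40.8% of 14775 genes tested were called (30.9% higher, 9.85% lower), and 9 of the 10 did not overlap, against 54.6% of all genes. HK1 rose by 0.61 (SE 0.09, limma adjusted p = 0.00150) and HK2 fell by 0.34 (SE 0.11, limma adjusted p = 0.0384) between the time points, in opposite directions. The 6 h libraries are those already compared with untreated cells, so this is not separate evidence. The call of HK1 held in 6 of 6 fits that left out 1 library, and that of HK2 in 1, the fit without the second 6 h library. The median of all genes was 0.16 in this comparison, and under median-ratio scaling 1 of the 10 genes rose and 2 fell, where 15.9% of all genes were called higher and 22.1% lower. At 10 μM, HK1 and PGK1 rose between 6 h and 24 h by 0.84 and 0.66 (limma adjusted p = 0.0446 and 0.0324), where 7.86% of 14920 genes were called (5.80% higher, 2.06% lower), and 9 of the 10 did not overlap, against 38.2% of all genes. Both lost the call without any 1 of the 24 h libraries or the first 6 h library. Without the third 6 h library 23.5% of all genes were called and 5 of the 10 rose and 2 fell, SLC2A1 and HK2 being the 2 that were lower at 24 h. At 24 h the 2 doses did not differ for any of the 10 genes by limma (3 had an unadjusted p under 0.05), where 0.180% of 15039 genes were called (0.140% higher, 0.0399% lower), and 2 of the 10 did not overlap, against 18.1% of all genes. The differences of 10 μM from 2 μM ranged from -0.19 for HK2 (95% interval -0.37 to -0.02) to 0.06 for SLC2A1 (-0.07 to 0.18).

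A ratio of 2 genes within a library does not depend on how the library was scaled. The ratio of HK2 to HK1 was chosen after the values were seen. In untreated HCT116 it was 0.328, 0.277 and 0.275. At 6 h it was 0.806, 0.764 and 0.886 at 2 μM and 0.905, 0.819 and 1.21 at 10 μM, so that HK2 came near the level of HK1. At 24 h it was 0.428, 0.378 and 0.441 at 2 μM and 0.424, 0.382 and 0.425 at 10 μM. All 4 treated groups lay above the untreated libraries without overlap, a difference of means of 2.79-fold, 3.33-fold, 1.42-fold and 1.40-fold in the order given. The 3.33-fold at 10 μM for 6 h includes 1.21 from the third replicate that stood apart, which raised the mean to 0.977. The step from 2.79-fold to 3.33-fold is therefore not read as an effect of dose. As the ratio was chosen for this pattern, no test is given. In Ramos the ratio was 0.266 ± 0.0213 in untreated cells (SD, n = 3) and its means in treated groups ranged from 0.229 to 0.300. The Ramos libraries at 0.5 μM for 24 h (0.215, 0.220 and 0.251) lay below the untreated ones (0.252 to 0.290), and the other treated groups overlapped them.

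The ratio of LDHA to PKM, which divides the lactate-forming by the pyruvate-forming enzyme, was also chosen after the values were seen. It was 0.604, 0.618 and 0.570 in untreated HCT116 and 0.853, 0.919 and 0.866 after 6 h at 2 μM. At 10 μM for 6 h it was 0.783, 0.705 and 1.16, the last in the third replicate that stood apart and raised the mean to 0.882. The means at 24 h were 0.817 at 2 μM and 0.810 at 10 μM, and none of the 4 treated groups overlapped the untreated libraries. In Ramos LDHA was the more abundant transcript, with a mean ratio of 1.10 in untreated cells and 1.04 to 1.15 in treated groups.

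**Figure D3:**
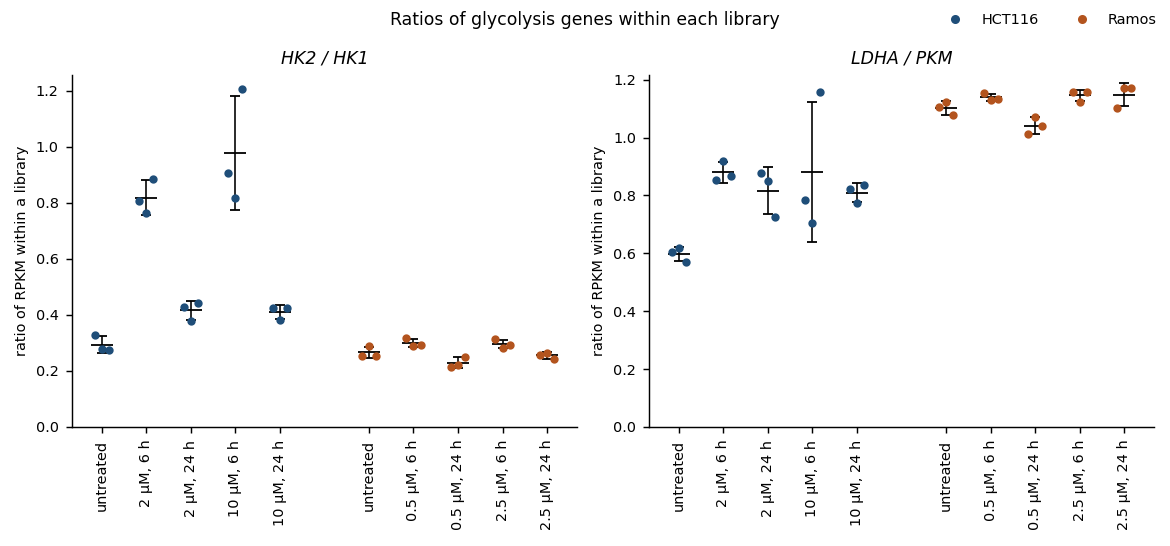
Ratio of HK2 to HK1 RPKM (left) and of LDHA to PKM RPKM (right) in each library, by line, dose and time; points are libraries, the long bar is the mean and the whiskers are 1 SD (n = 3), and both axes start at 0. In HCT116 the HK2 to HK1 ratio rose from 0.293 in untreated cells to 0.819 and 0.977 at 6 h and was 0.416 and 0.410 at 24 h, while in Ramos it stayed between 0.215 and 0.318 in every library. The mean of 0.977 at 10 μM includes the third replicate that stood apart, at 1.21.

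In Ramos the response at 6 h was small and ran mostly upward. At 2.5 μM 6 of the 10 genes rose and 1 fell, where 27.9% of 13595 genes tested were called (17.3% higher, 10.7% lower). At 0.5 μM 4 rose and 1 fell, where 23.6% of 13614 genes were called (13.8% higher, 9.73% lower). The medians of the 10 were 0.18 and 0.13, against 0.03 and 0.02 over all genes. The libraries did not overlap for 7 of the 10 genes at either dose, against 44.7% of all genes at 2.5 μM and 41.4% at 0.5 μM. ALDOA, GAPDH, PKM and LDHA rose at both doses, PGK1 and ENO1 at 2.5 μM, and HK1 was the gene that fell at both. The treated groups share their untreated libraries, so the 2 doses are not separate evidence.

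ALDOA had the largest rise among the 10 in Ramos. It was at 685, 699 and 779 RPKM in untreated cells, at 868, 845 and 872 RPKM at 0.5 μM and at 882, 894 and 843 RPKM at 2.5 μM, and neither treated group overlapped the untreated one. The log2 differences were 0.26 ± 0.06 and 0.28 ± 0.06 (SE, limma adjusted p = 0.0128 and 0.00715), a rise of 19.7% and 21.3%. LDHA went from 539.6, 553 and 543 RPKM to 642, 617 and 627 RPKM at 0.5 μM and 663, 640.3 and 635 RPKM at 2.5 μM, again without overlap. Its log2 differences were 0.20 ± 0.04 and 0.24 ± 0.04 (SE, limma adjusted p = 0.0102 and 0.00216).

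GAPDH rose by 0.22 and 0.25 (limma adjusted p = 0.0379 and 0.0133) and PKM by 0.16 and 0.19 (limma adjusted p = 0.0277 and 0.00764) at 0.5 μM and 2.5 μM. PGK1 and ENO1 rose by 0.14 and 0.17 at 2.5 μM (limma adjusted p = 0.0319 and 0.0444). Their values at 0.5 μM, 0.13 and 0.14, did not pass the threshold (limma adjusted p = 0.0788 and 0.111). HK1 was at 27.2, 26.7 and 28.0 RPKM in untreated cells and at 23.4, 23.4 and 23.6 RPKM after 6 h at 0.5 μM, a fall of 0.21 on the log2 scale (SE 0.05, limma adjusted p = 0.0158), and it fell by 0.16 at 2.5 μM (SE 0.05, limma adjusted p = 0.0351). Unlike in HCT116, HK2 did not pass the threshold at 6 h, with log2 differences of -0.04 and -0.01 that turned to 0.05 and 0.13 with equal sums of RPKM. SLC2A1 and PFKP had differences between 0.07 and 0.21, none past the threshold.

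Several of these small changes lost their call when 1 library was left out. The calls of GAPDH and PKM at 0.5 μM were lost in 5 of 6 fits that left out 1 library, all but the one without the third untreated replicate. At 2.5 μM the call of ENO1 was lost in the same 5 of 6, that of HK1 in all but the one without the second untreated replicate, and that of PGK1 in 4 of 6 (without any treated replicate or the first untreated one). HK1 at 0.5 μM lost its call without treated replicate 2 or 3, ALDOA at 0.5 μM without treated replicate 3 or untreated replicate 1, and GAPDH at 2.5 μM without the first or second treated one. ALDOA, PKM and LDHA at 2.5 μM and LDHA at 0.5 μM were called in 6 of 6, and under every other setting tried as well. Under median-ratio scaling GAPDH and PKM at 0.5 μM and PGK1 and ENO1 at 2.5 μM lost their calls, and with equal sums of RPKM HK1 lost its call at both doses.

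At 24 h none of the 10 genes was called in Ramos by limma at either dose. At 0.5 μM 0.0146% of 13674 genes tested were called and 1 of the 10 had an unadjusted p under 0.05, and at 2.5 μM 4.61% of 13607 genes were called (3.30% higher, 1.31% lower) and 2 of the 10 had an unadjusted p under 0.05. LDHA was at 531, 568 and 552 RPKM at 0.5 μM and at 549.5, 586 and 578 RPKM at 2.5 μM, overlapping the untreated 539.6 to 553 RPKM. At each dose 3 of the 10 genes did not overlap, against 11.5% of all genes at 0.5 μM and 27.4% at 2.5 μM. The 95% interval of its log2 difference ran from -0.09 to 0.11 at 0.5 μM and from -0.02 to 0.16 at 2.5 μM. GAPDH had the largest difference of the 10 at 2.5 μM, 0.16 (95% interval 0.05 to 0.28, limma adjusted p = 0.110). With equal sums of RPKM 8 of the 10 genes rose at 2.5 μM, where 38.3% of all genes were called higher, and the all-gene median was 0.24 in place of 0.05.

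Between 6 h and 24 h at 2.5 μM 4 of the 10 genes fell in Ramos and none rose, where 23.0% of 13564 genes tested were called (12.7% higher, 10.4% lower), and 7 of the 10 did not overlap, against 40.5% of all genes. ALDOA fell by 0.20, PKM by 0.18, LDHA by 0.18 and PGK1 by 0.13 (limma adjusted p = 0.00349, 0.00326, 0.00728 and 0.0169). The call of PGK1 was lost without replicate 2 of either time. With equal sums of RPKM 1 gene rose and none fell, where 17.6% of all genes were called higher and 5.25% lower. The 2 doses at 24 h did not differ for any of the 10 by limma (1 had an unadjusted p under 0.05), where 4.25% of 13629 genes were called (2.39% higher, 1.86% lower) and 5 of the 10 did not overlap, against 27.1% of all genes, with differences from -0.09 to 0.14.

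**Figure D4:**
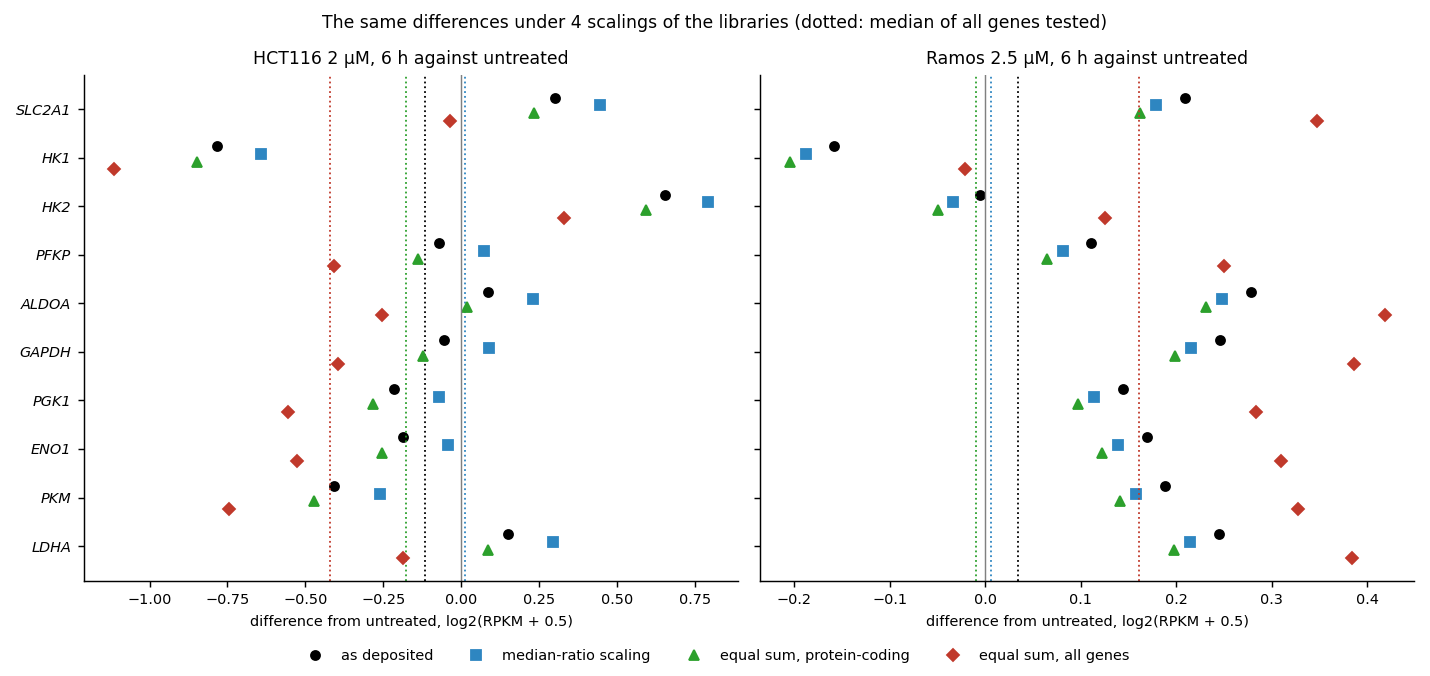
Log2 differences from untreated cells of the 10 genes at 6 h, in HCT116 at 2 μM (left) and Ramos at 2.5 μM (right, with its own axis), computed from the values as deposited and with the libraries rescaled in 3 ways; dotted lines mark the median of all genes tested under each. In HCT116 the rescaling to equal total sums moves the median from -0.12 to -0.42 and most of the 10 genes with it, and HK1 and HK2 keep the lowest and the highest place under every scaling.

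Whether the lines responded differently was tested as the difference of their responses, with 2 μM in HCT116 against 2.5 μM in Ramos. The doses differ, and the RNA-seq methods name the transfection reagent for HCT116 but do not describe the Ramos treatment. Line, dose and any difference in reagent therefore cannot be told apart. At 6 h 6 of the 10 genes differed between the lines, 1 with the higher and 5 with the lower response in HCT116, where 40.6% of 15562 genes tested were called (12.2% higher, 28.4% lower). HK2 had the higher response in HCT116 (difference of log2 differences 0.66 ± 0.15 SE, limma adjusted p = 0.00474). HK1, PKM, PGK1, ENO1 and GAPDH had the lower response, by -0.63, -0.59, -0.36, -0.36 and -0.30, against a median of -0.14 over all genes. At 24 h 3 of the 10 differed, all with the higher response in HCT116, where 16.3% of 15714 genes were called (6.81% higher, 9.51% lower). These were HK2 at 0.42 ± 0.10, LDHA at 0.36 ± 0.09 and ALDOA at 0.30 ± 0.07 (SE, limma adjusted p = 0.0162, 0.0249 and 0.0172). At 24 h LDHA lost its call without treated replicate 1 or untreated replicate 3 of HCT116 or treated replicate 1 of Ramos, while the other calls held without any 1 library. GAPDH at 6 h lost its call without the filter, under median-ratio scaling and with the replicate number as a block. ENO1 at 6 h lost its call under median-ratio scaling and LDHA at 24 h without the filter. With equal sums of RPKM HK2 kept its sign at both times without passing the threshold, while LDHA and ALDOA at 24 h turned to -0.002 and -0.07.

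The share of the protein-coding RPKM taken by the 10 genes together gives the pathway's weight in the mRNA. In HCT116 it was 1.58%, 1.57% and 1.56% in untreated cells, 1.43%, 1.38% and 1.41% after 6 h at 2 μM, and 1.74%, 1.80% and 1.68% after 24 h at 2 μM, so that it lay below the untreated libraries at 6 h and above them at 24 h. At 10 μM the means were 1.22% at 6 h, the lowest value being the third replicate's, and 1.64% at 24 h, where the libraries overlapped the untreated ones. In Ramos it was 1.27%, 1.31% and 1.36% in untreated cells, and 1.47% and 1.49% on average after 6 h at 0.5 μM and 2.5 μM, above all untreated libraries. After 24 h at 2.5 μM it was 1.37%, 1.40% and 1.38%, also above them, and at 0.5 μM its mean was 1.36%, with libraries that overlapped. GAPDH alone has the highest level of the 10 and weighs most in this sum. Each comparison without overlap has an exact two-sided permutation p of 0.1, the smallest possible.

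The genes were not uniform among themselves. Over the 15 libraries of HCT116, ALDOA, ENO1, PFKP, GAPDH, PKM, PGK1, HK1 and LDHA had a Pearson r between 0.79 and 0.97 with the mean of the standardized values of all 10, while SLC2A1 had 0.17 and HK2 -0.07. Over the 15 Ramos libraries the r of HK1 was -0.81 and that of the other 9 genes lay between 0.38 and 0.94. These r share their libraries, groups and scaling and count each gene within the mean, so they are descriptions. The genes outside the 10 with the closest pattern, limited to genes that averaged 2 RPKM or more, were WRAP53, SF3B2, PPP2R5D, ALAS1 and NOC2L in HCT116 (r = 0.98 to 0.96, 11708 genes compared) and GPI, CD79B, TMEM201, MAP4K2 and PALD1 in Ramos (r = 0.96 to 0.94, 10739 genes compared). GPI, glucose-6-phosphate isomerase, is the enzyme between hexokinase and phosphofructokinase.

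Other genes of the pathway, from a list of 23 chosen with earlier results of these data known, were read beside the 10. The counts of this and the next lists stand against the shares of all genes called higher and lower. These were 15.5% and 31.8% for HCT116 at 2 μM for 6 h, 16.6% and 10.8% at 2 μM for 24 h, 8.84% and 21.2% at 10 μM for 6 h and 19.5% and 15.7% at 10 μM for 24 h. In Ramos they were 13.8% and 9.73% at 0.5 μM and 17.3% and 10.7% at 2.5 μM for 6 h, and 3.30% and 1.31% at 2.5 μM for 24 h. With equal sums they were, in the same order, 4.27% and 58.9%, 5.99% and 20.0%, 2.08% and 46.5%, and 6.75% and 26.3% in HCT116. In Ramos equal sums gave 16.6% and 4.21%, 29.3% and 5.10%, and 38.3% and 1.04% in that order. In HCT116, of 13 measured, none rose and 7 fell after 6 h at 2 μM, 5 rose and 3 fell after 24 h at 2 μM, 1 rose and 7 fell after 6 h at 10 μM, and 3 rose and 3 fell after 24 h at 10 μM. Rescaled to equal sums, none rose and 12 and 10 fell at 6 h (2 μM and 10 μM), while 3 rose and 3 fell and 1 rose and 3 fell at 24 h. ALDOC, the brain form of aldolase, went from 20.5 ± 1.09 to 10.3 ± 1.69 and 7.45 ± 1.75 RPKM at 6 h (2 μM and 10 μM) and to 32.9 ± 8.28 and 32.0 ± 7.04 RPKM at 24 h (SD, n = 3), log2 differences of -0.97, -1.42, 0.65 and 0.61 that all passed the threshold. ENO2, the neuronal enolase, fell at 6 h (-0.55 and -0.62) and rose at 24 h (0.53 and 0.35) in the same way.

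The other phosphofructokinase genes, PFKL and PFKM, fell in all 4 HCT116 comparisons, PFKL by 0.66, 0.31, 0.87 and 0.44 and PFKM by 0.64, 0.23, 0.92 and 0.22 (2 μM for 6 h and 24 h, then 10 μM for 6 h and 24 h). PFKP, the member of that family among the 10, passed the threshold in none of them. LDHB, the partner subunit of LDHA, also fell in all 4, by 0.42, 0.22, 0.70 and 0.24, from 879.5 ± 8.87 RPKM in untreated cells (SD, n = 3). LDHA and LDHB therefore moved in opposite directions at 24 h. None of the genes named here from the list changed sign under any scaling, and ENO2 at 10 μM for 24 h lost its call with equal sums.

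In Ramos, of 11 measured, 5 rose and none fell after 6 h at 0.5 μM, and 6 rose and 1 fell at 2.5 μM. ALDOC rose from 13.2 ± 0.491 to 20.8 ± 1.80 and 23.3 ± 1.06 RPKM (SD, n = 3), log2 differences of 0.63 and 0.79 (limma adjusted p = 0.000595 and 7.37e-05), opposite in sign to its change at 6 h in HCT116. PGAM1, phosphoglycerate mutase, rose by 0.25 and 0.31. SLC2A3, the glucose transporter GLUT3, fell by 0.79 at 2.5 μM (limma adjusted p = 0.0104), from 2.62 ± 0.401 to 1.32 ± 0.335 RPKM. At 24 h none of the 11 was called by limma at either dose (1 at 0.5 μM and 4 at 2.5 μM had an unadjusted p under 0.05), but with equal sums 9 of the 11 rose at 2.5 μM. HK3 was below the filter on low values in all 8 comparisons and ENO2 in those of Ramos.

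The lactate and pyruvate carriers move the products of the pathway across membranes. Of 7 measured in HCT116, 3, 4, 1 and 4 rose and none fell at 2 μM for 6 h and 24 h and at 10 μM for 6 h and 24 h. SLC16A3, the lactate exporter MCT4, went from 127 ± 12.7 to 207 ± 18.3 RPKM at 2 μM and 221 ± 10.4 RPKM at 10 μM after 24 h (SD, n = 3), rises of 0.71 and 0.80 (limma adjusted p = 0.000839 and 8.53e-05). BSG, its chaperone at the membrane, rose by 0.44 and 0.54. At 6 h EMB and MPC2 rose by 0.47 and 0.46 at 2 μM and SLC16A1, the carrier MCT1, by 0.56 at 10 μM. Under equal sums of RPKM none rose and 1 fell at 2 μM for 6 h, none was called at 10 μM for 6 h, where SLC16A1 was at 0.07, and 2 rose at each dose at 24 h. In Ramos SLC16A7, the carrier MCT2, rose by 0.33 and 0.41 at 2.5 μM (6 h and 24 h), and at 0.5 μM none was called by limma at 6 h or 24 h (2 and 0 had an unadjusted p under 0.05). Equal sums gave 4 that rose at 2.5 μM at each time.

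Of the genes that set glycolytic flux, 13 in the list with 10 measured in HCT116, 1 rose and 5 fell at 2 μM for 6 h, and none rose and 5 fell at 10 μM. With equal sums none rose and 8 and 7 fell. PDK1 and PDK3, kinases that keep pyruvate out of the mitochondrial oxidation, fell by 0.79 and 0.74 at 2 μM and by 0.85 and 1.13 at 10 μM. At 24 h 2 rose and none fell at 2 μM, and 1 rose and 3 fell at 10 μM. PFKFB4, which sets the level of the activator of phosphofructokinase, fell by 0.66 and 0.70 at 6 h and rose by 0.86 and 0.49 at 24 h, TIGAR by 0.28 at 2 μM, and PDK3 fell by 0.40 at 10 μM. TIGAR lost that call with equal sums. In Ramos PDK1 rose by 0.35 at 0.5 μM for 6 h. No other of 9 measured was called by limma in any of the 4 comparisons, and 1 at 0.5 μM for 24 h, 5 at 2.5 μM for 6 h and 0 at 2.5 μM for 24 h had an unadjusted p under 0.05. With equal sums 2 rose at 0.5 μM for 6 h, 5 at 2.5 μM for 6 h and 2 at 2.5 μM for 24 h.

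Of 6 pentose phosphate genes, whose pathway draws on the same glucose 6-phosphate, 1 rose and 5 fell in HCT116 after 6 h at 2 μM, 1 fell after 24 h and 3 fell after 6 h at 10 μM. After 24 h at 10 μM none was called by limma (1 had an unadjusted p under 0.05), but 4 fell with equal sums and 2 with equal protein-coding sums. With equal protein-coding sums 18.4% of all genes were called lower there. At 2 μM for 6 h 1 rose and 2 fell under median-ratio scaling (24.3% and 20.9% of all genes). With equal sums none rose and 5 fell. RPE fell by 0.54 and RPIA rose by 0.52 at 2 μM for 6 h, and PGD and TALDO1 fell by 0.67 and 0.58 at 10 μM. After 24 h at 2 μM PGD fell by 0.25. In Ramos TKT rose by 0.22 and 0.30 at 6 h, RPIA fell by 0.24 at 0.5 μM, and PGLS rose by 0.27 at 6 h and 0.33 at 24 h at 2.5 μM. In all, 1 rose and 2 fell, then 2 rose and 1 fell, at 6 h in the order of dose, and 1 rose at 2.5 μM for 24 h. With equal sums 2 rose and none fell at each dose at 6 h, and 6 of 6 rose at 2.5 μM for 24 h. The call of PGD at 10 μM for 6 h was lost with equal protein-coding sums, and those of TKT at 0.5 μM and of PGLS at 24 h with these and under median-ratio scaling. Equal sums ended the calls of RPIA in both lines.

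Hypoxia response genes outside glycolysis were listed because HIF-1 shares targets with this pathway. Of 17 measured in HCT116, 1 rose and 8 fell after 6 h at 2 μM and 1 rose and 7 fell at 10 μM, while 10 rose and 1 fell after 24 h at 2 μM and 7 rose and 3 fell at 10 μM. Rescaled to equal sums, 1 rose and 14 fell and 1 rose and 11 fell at 6 h, and 6 rose and 2 fell and 5 rose and 3 fell at 24 h, in the order of dose. ADM, the adrenomedullin gene, rose in all 4, by 1.04, 1.01, 1.20 and 1.06 in the order 2 μM for 6 h and 24 h, then 10 μM for 6 h and 24 h. BNIP3L, a mitophagy receptor, fell by 1.06 and 1.38 at 6 h, and at 24 h ANKRD37 rose by 1.13 at 2 μM and P4HA2 by 0.92 at 10 μM. In Ramos, of 14 measured, 3 rose and 1 fell at 0.5 μM and 4 rose and 2 fell at 2.5 μM after 6 h, and at 24 h none at 0.5 μM and 2, both lower, at 2.5 μM were called by limma (3 and 5 had an unadjusted p under 0.05). At 2.5 μM for 24 h 6 rose and 1 fell with equal sums. BNIP3 and ANKRD37 rose by 0.52 and 0.36 at 0.5 μM for 6 h, P4HA2 rose by 0.99 and ADM fell by 0.79 at 2.5 μM for 6 h, and ADM and BNIP3L fell by 0.46 and 0.35 at 24 h. ANKRD37 at 0.5 μM lost its call under median-ratio scaling and BNIP3L at 24 h with equal sums.

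MondoA, encoded by MLXIP, senses glucose 6-phosphate with its partner MLX and drives TXNIP and ARRDC4. TXNIP was below the filter on low values in HCT116. There, of 4 measured genes, ARRDC4 fell in all 4 comparisons by 0.33, 0.39, 0.58 and 0.80 (2 μM for 6 h and 24 h, then 10 μM for 6 h and 24 h). MLXIPL, the related factor ChREBP, fell by 0.43 at 2 μM for 6 h and rose by 0.41 and 0.38 at 24 h. Under median-ratio scaling neither fall was called at 2 μM for 6 h (ARRDC4 -0.20, MLXIPL -0.29), and with equal sums neither rise of MLXIPL was called. In Ramos TXNIP fell at 6 h from 10.3 ± 0.802 to 5.40 ± 0.289 and 5.55 ± 0.371 RPKM at 0.5 μM and 2.5 μM (SD, n = 3), by 0.86 and 0.83 on the log2 scale (limma adjusted p = 0.000323 and 0.000286), and none of 3 was called at 24 h by limma (0 and 1 had an unadjusted p under 0.05). By count 1 rose and 2 fell, 1 rose and 1 fell, none rose and 1 fell, and 2 rose and 1 fell in the HCT116 comparisons in the order given for ARRDC4.

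Without the third replicate of HCT116 at 10 μM for 6 h, 51.2% of all genes were called at that dose and time, in either direction. The counts were then 1 higher and 9 lower for the other glycolysis genes, 3 and 1 for the carriers and none and 5 for the flux genes. They were none and 4 for the pentose phosphate genes, 2 and 10 for the hypoxia genes and 2 and 1 for the MondoA genes.

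Reads from copies and neighbours could enter the values of some of the 10 genes, since the handling of reads that match several places is not stated beyond the tool's name. The summed RPKM of the processed pseudogenes of LDHA was between 0.876% and 1.68% of LDHA itself in every library, and for HK2, ALDOA, GAPDH, PGK1, ENO1 and PKM it was at most 0.445%. Of the genes that overlap the 10 in GENCODE 29 (GRCh38), the highest mean was 3.95 RPKM for AC019069.1, on the strand opposite to HK2. HK1 lies at chr10:69269984-69401884 and HK2 at chr2:74833981-74893359, both on the plus strand, and PKM at chr15:72199029-72231822 on the minus strand overlaps no annotated gene. LDHA lies at chr11:18394388-18408425 and ALDOA at chr16:30064164-30070457, both on the plus strand. PKM isoforms, which arise by alternative splicing of 1 gene, are not separated in a table of genes.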

How the data were processed

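RNA-seq was analysed in 30 libraries, 3 for each of 10 groups read from the sample titles. The authors deposited a single table of RPKM values per gene. RSEM is named in the submitters' processing notes, and the aligner, genome build and annotation were not given in the sources used here. Because the estimates are fractions of reads, no count test was run. Ensembl identifiers were matched to GENCODE 29 symbols (57388 of 57992).

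Differences were tested with limma 3.58.1 (R 4.3.3, trended empirical Bayes) on log2(RPKM + 0.5), over every gene that averaged 0.5 RPKM or more in the libraries compared, with Benjamini-Hochberg adjustment over all of them and a threshold of 0.05. Fold changes on this scale understate those of low genes. The fits were tested on simulated data with balanced rises and falls or no change, and with no shift in scale between libraries. That test therefore does not cover the dependence on scaling. The genes and lists were chosen with earlier results of these data known. Of each list, the 2 called genes with the largest change and a mean RPKM of at least 2 in a comparison with untreated cells are named, together with the isoform partners of the 10 genes, and a gene so named may be given in the line's other comparisons. Each comparison was repeated with other pseudocounts (0.1 and 1), without the filter, with 3 other scalings, with the replicate number as a block, with all groups of a line in 1 fit where it has them, and without each library. The scaling to protein-coding sums, the comparison of 24 h with 6 h at 2 μM and the values without 1 library for the lists were added after the data were seen. The methods and the labels differ on the lower HCT116 dose, and a time tag differs from the titles, which were used here. A marker gene and a list gene are not reported here.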

Additional observations from a re-analysis of the deposited data

Results flagged for a closer look

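The response to Omomyc (2 μM in HCT116 less 2.5 μM in Ramos, each against untreated cells) was tested for a difference between the lines. Of the 10 genes 6 passed at 6 h and 3 at 24 h (HK2 at both), where 40.6% and 16.3% of all genes tested were called. Their limma adjusted p-values ran from 4.03e-05 to 0.0249. At 6 h the log2 differences were -0.63 for HK1, 0.66 for HK2, -0.30 for GAPDH, -0.36 (PGK1), -0.36 (ENO1) and -0.59 for PKM. The median over all genes was -0.14 at 6 h. At 24 h they were 0.42 for HK2, 0.30 for ALDOA and 0.36 for LDHA, and the last 2 turned to -0.07 and -0.002 with equal sums of RPKM. GAPDH at 6 h lost its call without the filter, under median-ratio scaling and under a replicate block, ENO1 at 6 h under median-ratio scaling, LDHA at 24 h without the filter, and HK2 at both times with equal sums. The dose differs between the lines along with the line itself, and the transfection reagent may differ too, so these cannot be told apart.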

How the results depend on the processing

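Depth is unknown, so counting error could not be given, and 3 libraries a group limit every test. Of 477 repeats of called values under other settings, 8 turned sign and 86 lost the call, and of 426 repeats without 1 library none turned sign and 99 lost the call. Among the 8, PGK1 and LDHA between the untreated lines were called with the opposite sign under equal sums, and the rest were not called. The pseudocounts of 0.1 and 1 changed no call. In no comparison were all 3 correlations of same-numbered replicates above 0.1 (the lowest was -0.29), so the numbers were not read as pairs. All 3 were positive for HCT116 10 μM 6 h (0.095, 0.23 and 0.15), HCT116 10 μM against 2 μM 24 h (0.017, 0.0995 and 0.28) and untreated HCT116 against Ramos (0.051, 0.11 and 0.18). At least 1 was negative in every other comparison. The cause of each change below was not tested. Under median-ratio scaling the number of the 10 genes called was 2 (from 4) for HCT116 10 μM 24 h, 1 (from 2) for HCT116 10 μM 24 h against 6 h, 3 (from 5) for Ramos 0.5 μM 6 h and 3 (from 8) for HCT116 2 μM 24 h against 6 h. The same setting turned the sign of PFKP 0.073, GAPDH 0.089 (HCT116 2 μM 6 h), LDHA -0.0080 (Ramos 0.5 μM 24 h), SLC2A1 -0.0037, PGK1 -0.038, PKM -0.044 (Ramos 2.5 μM 24 h), PFKP -0.0051 (HCT116 2 μM 24 h against 6 h) and LDHA 0.050 (the line difference at 6 h). With equal sums of RPKM the number of the 10 genes called was 1 (from 4) for HCT116 2 μM 24 h, 7 (from 4) for HCT116 10 μM 6 h, 1 (from 4) for HCT116 10 μM 24 h, 8 (from 0) for Ramos 2.5 μM 24 h, 1 (from 4) for Ramos 2.5 μM 24 h against 6 h and 1 (from 0) for Ramos 2.5 μM against 0.5 μM 24 h. The same setting turned the sign of SLC2A1 -0.037, ALDOA -0.25, LDHA -0.19 (HCT116 2 μM 6 h), PFKP -0.036, PGK1 -0.0094, ENO1 -0.055 (HCT116 2 μM 24 h), HK2 -0.056, PFKP -0.11, GAPDH -0.094, PGK1 -0.10, ENO1 -0.14 (HCT116 10 μM 24 h), HK2 0.052 (Ramos 0.5 μM 6 h), HK2 0.13 (Ramos 2.5 μM 6 h), HK1 0.15, HK2 0.087 (Ramos 2.5 μM 24 h), PFKP 0.041, ENO1 0.039 (Ramos 2.5 μM 24 h against 6 h), HK1 0.048, PGK1 0.064, PKM 0.051 (Ramos 2.5 μM against 0.5 μM 24 h), ALDOA 0.13, PGK1 0.25, LDHA 0.29 (untreated HCT116 against Ramos), SLC2A1 0.063 (HCT116 2 μM 24 h against 6 h), SLC2A1 -0.38 (the line difference at 6 h) and SLC2A1 -0.23, PFKP -0.33, ALDOA -0.068, PGK1 -0.23, LDHA -0.0016 (the line difference at 24 h). With equal protein-coding sums, added after the data were seen, the number of the 10 genes called was 0 (from 2) for HCT116 10 μM 24 h against 6 h. The same setting turned the sign of LDHA -0.0066 (Ramos 0.5 μM 24 h), PGK1 -0.032, PKM -0.038 (Ramos 2.5 μM 24 h) and GAPDH 0.027, PKM 0.0015 (the line difference at 24 h). Without the filter the number of the 10 genes called was 2 (from 4) for HCT116 2 μM 24 h, 2 (from 4) for HCT116 10 μM 6 h, 0 (from 2) for HCT116 10 μM 24 h against 6 h, 3 (from 5) for Ramos 0.5 μM 6 h, 4 (from 7) for Ramos 2.5 μM 6 h and 4 (from 8) for HCT116 2 μM 24 h against 6 h. Under a replicate block the number of the 10 genes called was 0 (from 2) for HCT116 10 μM 24 h against 6 h and 4 (from 7) for Ramos 2.5 μM 6 h. With all groups of a line in 1 fit the number of the 10 genes called was 2 (from 5) for HCT116 2 μM 6 h, 1 (from 4) for HCT116 2 μM 24 h, 1 (from 4) for HCT116 10 μM 24 h, 8 (from 2) for HCT116 10 μM 24 h against 6 h, 1 (from 0) for Ramos 2.5 μM 24 h and 4 (from 8) for HCT116 2 μM 24 h against 6 h. With 1 library left out, the number called ran from 3 to 5 for HCT116 2 μM 6 h, 2 to 4 for HCT116 2 μM 24 h, 1 to 7 for HCT116 10 μM 6 h, 2 to 4 for HCT116 10 μM 24 h, 0 to 7 for HCT116 10 μM 24 h against 6 h, 1 to 6 for Ramos 0.5 μM 6 h, 3 to 7 for Ramos 2.5 μM 6 h, 0 to 1 for Ramos 2.5 μM 24 h and 3 to 7 for HCT116 2 μM 24 h against 6 h. The log2 difference ran from -0.36 to 0.017 for PFKP in HCT116 10 μM 6 h, -0.019 to 0.11 for ENO1 in HCT116 10 μM 24 h, -0.12 to 0.0057 for ENO1 in HCT116 10 μM against 2 μM 24 h, -0.074 to 0.0085 for HK2 in Ramos 0.5 μM 6 h, -0.16 to 0.034 for SLC2A1 in Ramos 0.5 μM 24 h, -0.011 to 0.11 for PFKP in Ramos 0.5 μM 24 h, -0.014 to 0.079 for ALDOA in Ramos 0.5 μM 24 h, -0.010 to 0.039 for LDHA in Ramos 0.5 μM 24 h, -0.041 to 0.040 for HK2 in Ramos 2.5 μM 6 h, -0.018 to 0.17 for SLC2A1 in Ramos 2.5 μM 24 h, -0.019 to 0.038 for PGK1 in Ramos 2.5 μM 24 h, -0.0024 to 0.021 for PKM in Ramos 2.5 μM 24 h, -0.046 to 0.0029 for PFKP in Ramos 2.5 μM 24 h against 6 h, -0.035 to 0.19 for SLC2A1 in the line difference at 6 h, -0.026 to 0.093 for PFKP in the line difference at 24 h and -0.034 to 0.038 for GAPDH in the line difference at 24 h, none of them called. Over all genes, calls (those higher in parentheses) that moved by over 1.5 times, or whose share higher moved by over 10 points under a scaling, were as follows. For HCT116 2 μM 6 h 6884 (2251) as reported against 6566 (3534) median ratio, 9218 (623) equal sums. For HCT116 2 μM 24 h 4071 (2466) as reported against 2282 (1314) no filter, 4092 (1846) median ratio, 3872 (892) equal sums, 1113 (619) 1 fit. For HCT116 10 μM 6 h 4439 (1307) as reported against 4491 (2138) median ratio, 7235 (310) equal sums. For HCT116 10 μM 24 h 5220 (2888) as reported against 4900 (1001) equal sums, 2535 (1299) 1 fit. For HCT116 10 μM 24 h against 6 h 1173 (865) as reported against 296 (169) no filter, 968 (414) median ratio, 1515 (1396) equal sums, 542 (293) coding sums, 256 (116) block, 4297 (3479) 1 fit. For HCT116 10 μM against 2 μM 24 h 27 (21) as reported against 5 (4) no filter, 47 (21) equal sums, 8 (5) 1 fit. For Ramos 0.5 μM 6 h 3209 (1884) as reported against 2008 (1148) no filter, 2834 (2261) equal sums. For Ramos 0.5 μM 24 h 2 (2) as reported against 0 (0) no filter, 4 (4) equal sums, 1 (1) 1 fit. For Ramos 2.5 μM 6 h 3795 (2346) as reported against 4675 (3981) equal sums, 3579 (1743) coding sums. For Ramos 2.5 μM 24 h 627 (449) as reported against 84 (44) no filter, 350 (158) median ratio, 5362 (5221) equal sums, 335 (155) coding sums, 197 (110) block, 1242 (968) 1 fit. For Ramos 2.5 μM 24 h against 6 h 3125 (1720) as reported against 2040 (1177) no filter, 3096 (2384) equal sums. For Ramos 2.5 μM against 0.5 μM 24 h 579 (326) as reported against 65 (21) no filter, 535 (219) median ratio, 2567 (2377) equal sums, 475 (200) coding sums, 366 (185) block, 904 (576) 1 fit. For untreated HCT116 against Ramos 13242 (7144) as reported against 13260 (9756) equal sums. For HCT116 2 μM 24 h against 6 h 6026 (4570) as reported against 5595 (2341) median ratio, 7562 (6987) equal sums. For the line difference at 6 h 6317 (1895) as reported against 5952 (2822) median ratio, 9881 (536) equal sums. For the line difference at 24 h 2565 (1070) as reported against 6397 (344) equal sums, 1238 (534) block.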
